A study of Mus musculus with 4 samples.

Results

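The cells described here carried transcripts of 2 actin cytoskeleton genes that most cells of the same cultures lacked. They were selected on measured values: a cell belonged to the set when it held at least 3 unique molecular identifiers (UMIs, each counting 1 captured transcript) of Acta2 and at least 3 of Tagln. Acta2 encodes the actin isoform of vascular smooth muscle, and Tagln encodes transgelin (SM22 alpha), an actin-binding protein of the same tissue. In all, 56 of 8722 cells (0.642%) met the rule, and they are called Acta2/Tagln cells below. They were found in each of the 4 libraries.

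The study collected single-cell transcriptomes of mouse pluripotent cells driven in culture towards neuromesodermal progenitors, the caudal embryonic cells that feed both the spinal cord and the paraxial mesoderm. There was 1 library for each of 4 populations, 8700 cells were loaded for each on the 10x Chromium system, and the line is labelled E14Tg2a at passages 15 to 30. ES-NMP came from embryonic stem cells kept on gelatine in N2B27 medium for 2 days and then given 3 µM of CHIR99021 for 24 h, 72 h in total. CHIR99021 inhibits GSK3 and so activates WNT signalling. Epi-CE came from epiblast stem cells, made by at least 4 passages on fibronectin in N2B27 with 12 ng/ml FGF2 and 25 ng/ml Activin A. These cells then lost Activin A, received 20 ng/ml FGF2, and were given 3 µM CHIR99021 in addition on day 3. Epi-CE-T was grown in the same way from a Bra:GFP reporter line and sorted after 72 h for GFP-positive cells, so each of its cells had passed a gate on the reporter of T (Brachyury). Epi-NMP came from Epi-CE cells that were detached, replated on fibronectin and grown for 2 days in 20 ng/ml FGF2 and 3 µM CHIR99021. All 4 populations thus shared N2B27 medium and CHIR99021, and none was an untreated control.

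Smooth muscle cells contract through actin, myosin and the proteins that tie the 2 together, and their genes are classically switched on by serum response factor (SRF). SRF binds a short DNA element, the CArG box, and works with myocardin in differentiated smooth muscle or with the myocardin-related factors (MRTFs), which respond to actin assembly and cell shape. Acta2 and Tagln are therefore not unique to smooth muscle: activated fibroblasts, early cardiac cells and spread cells in culture use them too.

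The libraries held 1111 to 3116 cells that carry the deposited mark TRUE, with medians of 19174 to 22521 UMIs for the cells outside the set. The Acta2/Tagln cells were deeper, with medians of 24989.5 UMIs in ES-NMP, 31860 in Epi-CE, 29526 in Epi-CE-T and 29950 in Epi-NMP. When every cell was thinned to 8000 UMIs, 22 cells still met the rule: 14 in ES-NMP, 7 in Epi-CE, 1 in Epi-CE-T and none in Epi-NMP. Thinning under an unchanged minimum also makes the rule stricter for every cell. The fall therefore does not measure the part of depth in a rule on raw counts. No Acta2/Tagln cell shared its barcode sequence with a cell of another library, although 57 barcode sequences did occur in more than 1 library. Hprt, a purine salvage gene, separated the libraries: at least 3 UMIs were found in 75.4% of the other cells of ES-NMP and 43.5% of Epi-CE-T, and in 0% of Epi-CE and of Epi-NMP. E14Tg2a is known as an HPRT-deficient line, so the first 2 libraries go against that label, and the origin of their cells was not tested. The Acta2/Tagln cells carried the Hprt state of their own library, with at least 3 UMIs in 25 of 32 cells of ES-NMP, 0 of 16 of Epi-CE, 3 of 3 of Epi-CE-T and 0 of 5 of Epi-NMP.

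Acta2/Tagln cells made up 1.03% of ES-NMP (32 of 3116 cells, exact Clopper-Pearson 95% interval 0.704 to 1.45%). They were 0.671% of Epi-CE (16 of 2386, 0.384 to 1.09%), 0.450% of Epi-NMP (5 of 1111, 0.146 to 1.05%) and 0.142% of Epi-CE-T (3 of 2109, 0.0293 to 0.415%). These intervals cover counting error only. With 1 library per population the shares could not be tested between populations, and the intervals of ES-NMP and Epi-CE-T do not overlap.

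The 2 genes of the rule chose the cells, so their levels are a description. Acta2 lies at chr19:34241090-34255590 on the minus strand and Tagln at chr9:45929619-45936058 on the minus strand (GRCm38, the assembly also called mm10; GENCODE M21), and both are protein-coding. In ES-NMP the Acta2 UMIs per cell ran from 3 through a median of 12 to 1737, and those of Tagln from 3 through 40 to 754. In Epi-CE Acta2 ran from 3 through 12 to 131, and Tagln from 3 through 9 to 75. The 3 cells of Epi-CE-T held 3, 3 and 45 UMIs of Acta2 beside 12, 48 and 82 of Tagln. The 5 cells of Epi-NMP held 3, 7, 7, 8 and 50 UMIs of Acta2 beside 12, 6, 6, 3 and 4 of Tagln. A single ES-NMP cell stood far above the rest: it held 1737 of the 3195 Acta2 UMIs of that library's Acta2/Tagln cells (54.4%), 4.1% of all its own transcripts, and the next cell held 367. Sums over cells are therefore given below with counts of cells.

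**Figure D1:**
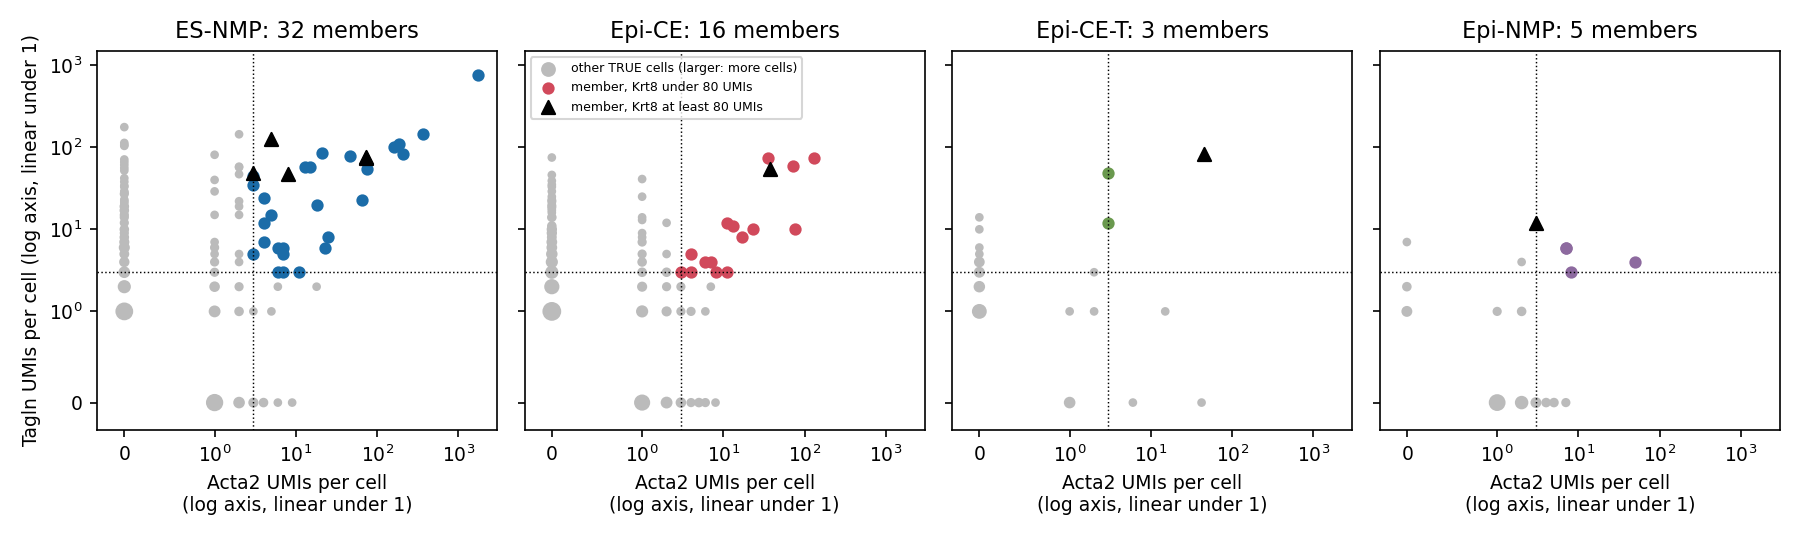
Acta2 (x axis) and Tagln (y axis) UMIs per cell in the 4 libraries, for cells with at least 1 UMI of either gene; axes are logarithmic above 1, and dotted lines mark the minimum of 3. Coloured points and black triangles are the 56 Acta2/Tagln cells, triangles being the 8 with at least 80 Krt8 UMIs; 1 ES-NMP cell lies apart at 1737 Acta2 and 754 Tagln UMIs.

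The rule cut through a continuum. In 15 cells the lower of the 2 counts was exactly 3, and in 25 further cells it was 2, just outside. At the other end, 23 cells held at least 10 UMIs of both genes, 14 of them in ES-NMP, 8 in Epi-CE, 1 in Epi-CE-T and none in Epi-NMP. Either gene was also found alone: 44 cells had at least 3 Acta2 UMIs and no Tagln, and 219 had at least 3 Tagln UMIs and no Acta2. Which gene was found alone varied between libraries. In Epi-NMP 17 cells had Acta2 without Tagln and 1 had Tagln without Acta2, whereas in Epi-CE 15 had Acta2 without Tagln and 118 had Tagln without Acta2.

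The cells were compared with the remaining TRUE cells of the same library by UMIs summed over each set. ES-NMP and Epi-CE, the libraries with at least 10 Acta2/Tagln cells, entered a paired edgeR quasi-likelihood fit with library as a block, which leaves 1 residual degree of freedom. An adjusted p here is edgeR's with Benjamini-Hochberg adjustment over the 9103 genes tested, at a threshold of 0.05. It rests on 2 libraries of different populations, with no replicate of either, and on a spread that edgeR estimates partly from other genes. A call therefore does not show a like difference in both libraries, and Mylpf, for example, was called lower without being lower in Epi-CE. In Acta2/Tagln cells 281 genes were higher (3.09% of those tested) and 48 were lower (0.527%). Raised and lowered genes were not found with equal power in a simulation. In simulated data with known changes the fit found 26 of 50 genes raised 2-fold and 13 of 50 lowered to 0.5 of their level. For changes to 4 and 0.25 of the level it found 49 of 50 and 43 of 50, and it called 5 unchanged genes. The simulation gave all genes 1 common spread and the same change in both libraries. Its figures therefore do not carry over to genes whose UMIs lie in few cells or whose change differs between libraries. Without the cell that held the most Acta2 UMIs, 243 genes were higher and 35 lower. A fit on all 4 libraries, added after the data had been seen, called 331 higher and 109 lower, which became 137 and 28 without ES-NMP and 145 and 41 without Epi-CE. The library block carried the calls: without it 3 genes were higher and 0 lower, with 700 genes at an unadjusted p under 0.05. Within single libraries, ratios of CPM (UMIs per 1000000) carry exact conditional-binomial 95% intervals that cover counting error only. Of 9237 genes, 249 (2.70%) were at least 1.5-fold higher in Acta2/Tagln cells in every library.

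The contractile apparatus was higher as a group, without its defining myosin. Of 18 smooth muscle genes other than the 2 of the rule, 12 were abundant enough to test. Of these 9 were higher and 0 lower, and the median log2 fold change was 2.96 against -0.00 over all genes tested. Of the 18, 8 were at least 1.5-fold higher in all 4 libraries: Cnn1, Myl9, Tpm1, Tpm2, Cald1, Csrp1, Pdlim7 and Nexn.

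Cnn1, calponin, which binds actin and restrains myosin, lies at chr9:22099216-22109630 on the plus strand. It had 503 UMIs (590 CPM) in the 32 ES-NMP cells against 12.0 CPM in the others, a ratio of 49.2 (44.0 to 55.0). In Epi-CE the ratio was 8.35 (6.02 to 11.3), in Epi-CE-T it was 49.4 (15.1 to 126), and in Epi-NMP 59.7 (16.02 to 192). The Cnn1 UMIs of Epi-CE-T and of Epi-NMP were 5 in each. In each of these libraries 1 cell held all 5, its keratin-rich cell described below. Across both tested libraries the log2 fold change was 4.53 (SE 0.53, edgeR adjusted p = 0.00361). Each SE given with an edgeR fold change is its absolute value divided by the square root of edgeR's F statistic. It is therefore no measure of precision apart from the p-value. A Cnn1 UMI was found in 87.5% of the Acta2/Tagln cells and 10.8% of the other cells of ES-NMP, and after thinning to 8000 UMIs in 78.1% and 5.09%.

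Myl9, the regulatory light chain of smooth muscle myosin, had a ratio of 23.6 (21.2 to 26.3) in ES-NMP and 7.07 (5.66 to 8.74) in Epi-CE (log2 3.74, SE 0.37, edgeR adjusted p = 0.0024). In Epi-CE-T and Epi-NMP its ratios were 43.6 and 42.3. There the keratin-rich cell of each library, described below, held 19 and 25 Myl9 UMIs, and no other Acta2/Tagln cell held more than 1. Tpm1, a tropomyosin that lines the actin filament, was present in all 56 cells, at 5 to 363 UMIs in ES-NMP and 34 to 358 in Epi-CE. Its ratios were 12.0 (11.5 to 12.6), 4.34 (4.16 to 4.53), 8.51 (7.67 to 9.42) and 2.42 (2.14 to 2.73) in the 4 libraries, in the order in which the populations were introduced. Other cells also held much Tpm1, with 99.2% of those of Epi-CE carrying a UMI, so Tpm1 marked a level and not a presence. Lmod1, leiomodin, which nucleates actin filaments in smooth muscle, was higher in the paired fit (log2 4.71, SE 0.82, edgeR adjusted p = 0.0187). Its UMIs sat in 13 of 32 cells of ES-NMP and 2 of 16 of Epi-CE, and none was found in Epi-CE-T or Epi-NMP. The Lmod1 call did not hold in the fit on 4 libraries without Epi-CE. Nexn, nexilin, an actin-bundling protein of muscle, had ratios of 17.1, 18.9, 20.4 and 10.2 in the 4 libraries in the same order.

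The genes that define differentiated smooth muscle were near 0. Myh11, the smooth muscle myosin heavy chain, at chr16:14194535-14291372, gave 1 UMI over all 56 cells. Myocd, which encodes myocardin, gave 0, as did Itga1, and Mylk gave 1. In ES-NMP 3 UMIs correspond to 3.52 CPM in the summed cells, so levels below that were not detectable at this depth. Actg2, the enteric actin, had 26 UMIs in ES-NMP, 84.6% of them in 1 cell, and did not pass the test (log2 6.37, SE 1.55, edgeR adjusted p = 0.0637). Neither did Des, the muscle intermediate filament desmin (log2 0.52, SE 0.30, edgeR adjusted p = 0.397), nor Smtn, smoothelin (log2 1.03, SE 0.41, edgeR adjusted p = 0.232). For that reason the cells are called here by the genes of the rule and not as smooth muscle.

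**Figure D2:**
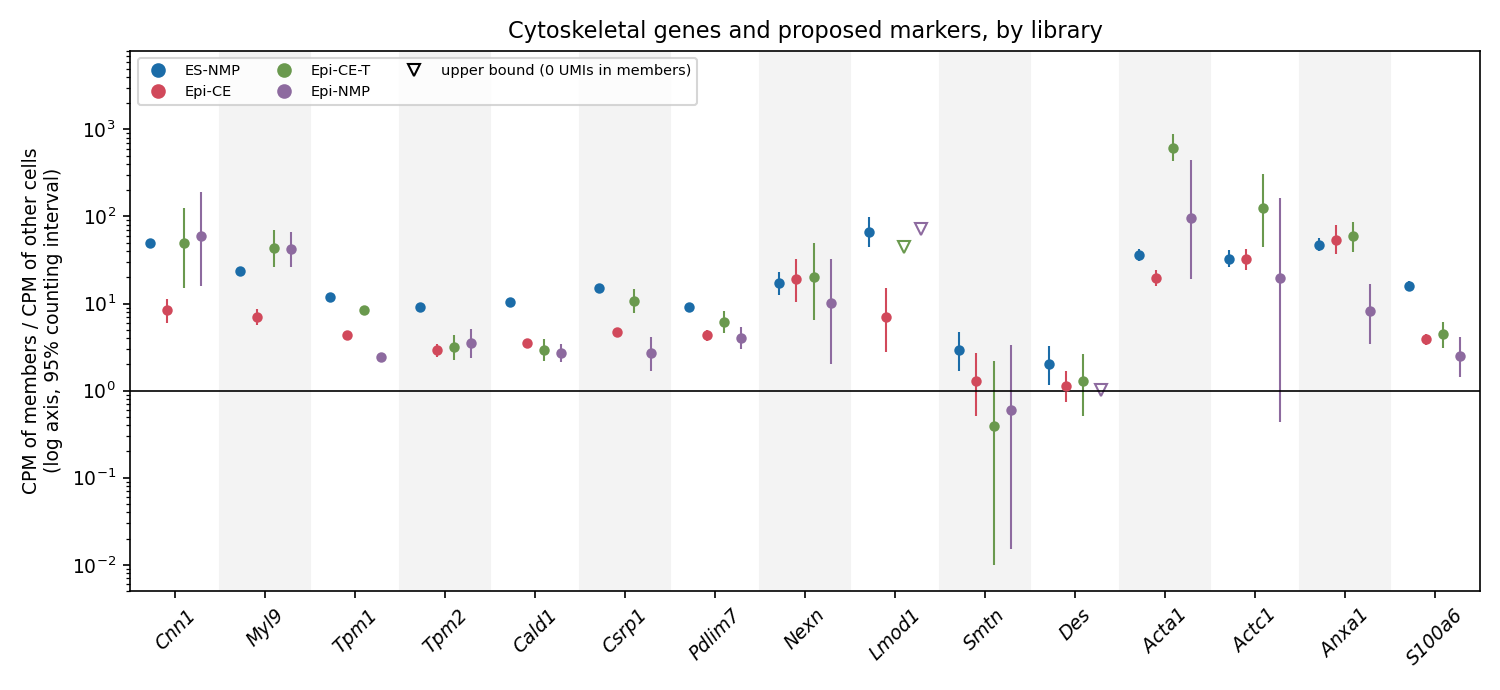
Ratio of CPM in Acta2/Tagln cells over the other TRUE cells of the same library (y axis, logarithmic) for contractile genes, muscle actins and the proposed markers Anxa1 and S100a6 (x axis), one point per library with its 95% counting interval; open triangles are upper bounds where the Acta2/Tagln cells held 0 UMIs. Cnn1, Myl9, Tpm1, Tpm2, Cald1, Csrp1, Pdlim7, Nexn, Anxa1 and S100a6 lie above 1 in all 4 libraries; Smtn and Des do not.

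Actins of other muscles were higher in the same cells. Acta1, the skeletal muscle actin, had a log2 fold change of 4.75 (SE 0.24, edgeR adjusted p = 4.94e-05), and Actc1, the cardiac actin, one of 5.00 (SE 0.22, edgeR adjusted p = 2.59e-05). Acta1 was found in 19 of 32 cells of ES-NMP and 8 of 16 of Epi-CE, against 4.28% and 7.55% of the other cells. Actc1 was found in 16 of 32 and 4 of 16, against 4.25% and 4.43%. These actins and Acta2 are close paralogues, and how reads shared between copies were counted is not given in the sources used here, so their separate levels are uncertain. Most markers of the 2 muscles were too low to test: 2 of 12 cardiac genes passed the filter, Actc1 and Tnnc1 (troponin C, log2 3.34, SE 0.46, edgeR adjusted p = 0.00661), and both were higher. Of 5 skeletal muscle genes tested, Acta1 was higher and Mylpf, a fast-muscle myosin light chain, was lower. Mylpf had 7 UMIs (8.21 CPM) in the Acta2/Tagln cells of ES-NMP against 106 CPM in the others, and 3.66 against 3.03 CPM in Epi-CE.

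SRF and MRTF target genes had the largest share called among the lists with at least 10 genes tested. Of 23 such genes outside the rule, 21 were tested, 18 were higher and 0 lower, the median log2 fold change was 2.23, and 13 were at least 1.5-fold higher in every library. The list overlaps the contractile one, and it was drawn up with earlier results of these data known, so its count is not independent support. Besides calponin and the tropomyosins it held Flna (filamin A, which cross-links actin; log2 2.09, SE 0.22, edgeR adjusted p = 0.00266) and Vcl (vinculin, of focal adhesions; log2 2.10, SE 0.22, edgeR adjusted p = 0.0026). Fhl2, an LIM protein that partners SRF, had a log2 fold change of 3.58 (SE 0.42, edgeR adjusted p = 0.00361) and ratios of 7.95, 18.1, 65.2 and 17.1 in the 4 libraries. Actb, the beta-actin of nearly all cells, was also higher (log2 1.05, SE 0.13, edgeR adjusted p = 0.00494), at 3605 against 1583 CPM in ES-NMP and 2868 against 1489 CPM in Epi-CE. In the fit on 4 libraries the calls of Vcl and Actb did not hold without Epi-CE, nor did that of Vcl without ES-NMP.

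Promoter sequences from RefSeq (GRCm38.p6) were searched for the CArG box because SRF, for which that list is named, binds it. The search covered the 250 bases before each annotated start, for CC, 6 bases of A or T, and GG, a pattern that reads alike on both strands. A box was found in 1.47% of all 32851 windows and in 1.47% of the 7027 tested genes that have a window. It was found in 15 of the 226 genes called higher that have a window (6.64%), in 0 of 35 called lower, and in 9 of 20 genes of the SRF and MRTF list (45%). The 15 included Actc1, Acta1, Myl9, Fhl2, Cnn2, Vcl, Fhl1, Actg1 and Myl6 of the actin cytoskeleton and its LIM-domain partners, beside Igf2, Rnd3, Glipr2, Dusp5, Myadm and Fermt2. The windows of Acta2 and Cnn1 held no box in these letters. The pattern is strict and near matches were not counted. The Acta2 window holds ccctatatgg and ccttgtttgg, which differ from it by a C or a G inside the run of A or T. The lack of a box in these letters therefore does not show that a promoter lacks a site for SRF. A match is a description of the sequence, and no binding was measured. The windows of the 3 called genes with the highest fold change that hold a box are shown with that of Acta2, each 5′ to 3′ and ending at the base before the start, with the box in capitals.
Actc1, chr2:114052876-114053125, minus strand, box starting 47 bases before the start: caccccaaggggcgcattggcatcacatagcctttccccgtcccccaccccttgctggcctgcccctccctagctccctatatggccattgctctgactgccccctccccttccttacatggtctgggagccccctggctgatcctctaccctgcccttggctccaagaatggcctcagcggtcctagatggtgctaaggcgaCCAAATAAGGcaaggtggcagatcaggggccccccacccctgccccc
Acta1, chr8:123894776-123895025, minus strand, box starting 73 bases before the start: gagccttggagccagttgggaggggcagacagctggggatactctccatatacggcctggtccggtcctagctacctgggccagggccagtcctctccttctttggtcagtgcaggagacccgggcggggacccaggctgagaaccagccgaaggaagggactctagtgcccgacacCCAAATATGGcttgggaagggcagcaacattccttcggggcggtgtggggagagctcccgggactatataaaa
Myl9, chr2:156775214-156775463, plus strand, box starting 161 bases before the start: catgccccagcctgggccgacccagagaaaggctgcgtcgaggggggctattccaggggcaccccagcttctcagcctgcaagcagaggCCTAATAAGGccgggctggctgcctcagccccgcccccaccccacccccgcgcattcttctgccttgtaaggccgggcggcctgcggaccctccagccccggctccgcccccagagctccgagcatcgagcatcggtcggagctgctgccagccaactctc
Acta2, chr19:34255374-34255623, minus strand, no box in these letters: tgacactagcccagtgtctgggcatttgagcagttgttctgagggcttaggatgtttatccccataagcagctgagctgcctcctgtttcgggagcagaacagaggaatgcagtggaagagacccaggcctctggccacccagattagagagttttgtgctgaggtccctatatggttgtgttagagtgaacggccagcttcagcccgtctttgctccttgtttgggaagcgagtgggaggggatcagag

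A second element was counted in the same windows: the MCAT element CATTCC, or GGAATG on the other strand, which TEAD factors bind. It was found in 12.6% of all windows, 12.4% of the tested genes, 23.5% of those called higher and 20% of those called lower, and in 6 of 10 genes of the YAP and TEAD list. A CArG box and an MCAT element overlapped in 4 of all windows.

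Genes of the YAP and TEAD pathway, which reads cell spreading and tension, were higher in part. Of 14 tested, 5 were higher and 0 lower (Cyr61, Ankrd1, Crim1, Axl and F3; median log2 1.70). The number higher was 11 with depth limited (both sets cut to the middle range of the Acta2/Tagln cells' UMIs, without the lowest and the highest 10%), 11 against cells with at most 1 UMI of the rule genes, 3 with all 4 libraries and 2 with all barcodes, FALSE ones included. Ankrd1, a cardiac ankyrin repeat protein, had the highest log2 fold change among the genes called that are named here (6.43, SE 1.37, edgeR adjusted p = 0.0414), from 19 UMIs in 5 of 32 cells of ES-NMP and 6 UMIs in 4 of 16 of Epi-CE, and none was found in the Acta2/Tagln cells of Epi-CE-T and Epi-NMP. F3, tissue factor, the initiator of clotting, had a log2 fold change of 5.12 (SE 0.53, edgeR adjusted p = 0.0025), with 194.7 against 3.18 CPM in ES-NMP and 18.3 against 1.64 CPM in Epi-CE. Cyr61, a secreted matricellular protein, had ratios of 12.0 (10.3 to 13.9), 2.10 (1.77 to 2.47), 12.5 (9.61 to 16.02) and 1.98 (1.20 to 3.07), and its call did not hold under DESeq2 or limma-voom. Ctgf, its close relative, was high in ES-NMP in 1 cell: 166 of the 215 UMIs (77.2%) came from the cell with the most Acta2, the ratio in Epi-CE was 0.63 (0.13 to 1.85), and Ctgf did not pass the test (edgeR adjusted p = 0.0928). Of 11 genes of the TGF-beta response tested, Tgfb2, a ligand, and Thbs1, thrombospondin, a matrix protein that can activate latent TGF-beta, were higher and 0 were lower (median log2 0.25), and 4 were higher with depth limited. Tgfb2 had ratios of 24.3 and 6.20 in ES-NMP and Epi-CE, and of 1.27 (0.578 to 2.41) and 1.49 (0.597 to 3.09) in Epi-CE-T and Epi-NMP. In the fit on 4 libraries the calls of Tgfb2 and Axl did not hold without ES-NMP or without Epi-CE, that of F3 did not hold without ES-NMP or that of Ankrd1 without Epi-NMP, and Crim1 was not called with all 4.

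Extracellular matrix and adhesion genes accompanied the contractile ones. Of 14 matrix genes tested, 8 were higher and 0 lower (median log2 2.56), and of 16 integrin and focal adhesion genes 8 were higher and 0 lower (median log2 1.40). Fn1, fibronectin, had ratios of 6.95 (6.12 to 7.87), 7.50 (6.33 to 8.82), 4.95 (3.42 to 6.94) and 2.85 (1.96 to 4.00) in the 4 libraries (log2 2.83, SE 0.16, edgeR adjusted p = 1.04e-04). Itga5, the integrin chain that binds fibronectin, had ratios of 12.7, 5.58, 7.61 and 3.88 (log2 3.08, SE 0.38, edgeR adjusted p = 0.00445). Sparc, a collagen-binding matrix protein, reached 1231 CPM in ES-NMP against 82.9 CPM in the other cells, and 871 against 294.5 CPM in Epi-CE (log2 2.72, SE 0.46, edgeR adjusted p = 0.0171), a call that did not hold under DESeq2 or limma-voom.

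Col1a1, the main chain of type I collagen, had a high fold change in the paired fit (log2 5.97, SE 0.75, edgeR adjusted p = 0.00494) that came from few cells. In ES-NMP 5 of 32 cells held Col1a1, and in Epi-CE 5 of 16 did. In Epi-CE-T 1 cell held 25 of the 26 Col1a1 UMIs and all 41 of Col1a2, and in Epi-NMP no Col1a1 UMI was found. At least 3 UMIs of Col1a1 or Col1a2 were found in 9 of the 56 cells. Of 12 fibroblast markers 3 could be tested, of which Col1a1 and Col1a2 were higher and 0 lower. Type I collagen thus marked a minority of the cells.

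Annexins and S100 proteins, calcium-binding proteins at the membrane and the cortical cytoskeleton, gave 7 of 17 tested higher and 0 lower (median log2 1.15), and 11 higher against cells with at most 1 UMI of the rule genes. Anxa1, annexin A1, at chr19:20373428-20390944 on the minus strand, had 211 UMIs in 16 of 32 cells of ES-NMP, 44 in 4 of 16 of Epi-CE, 30 in 3 of 3 of Epi-CE-T and 8 in 1 of 5 of Epi-NMP. Its ratios were 47.4 (39.9 to 56.3), 54.4 (36.9 to 79.1), 59.2 (38.8 to 87.5) and 8.17 (3.45 to 16.6), and it had the lowest edgeR adjusted p of the proposed markers (log2 5.62, SE 0.22, adjusted p = 1.82e-05). S100a6, calcyclin, at chr3:90612882-90624181 on the plus strand, had ratios of 15.9 (14.0 to 18.02), 3.87 (3.32 to 4.49), 4.44 (3.08 to 6.18) and 2.50 (1.42 to 4.08) (log2 2.97, SE 0.41, edgeR adjusted p = 0.00661). The proposed markers Cnn1, Anxa1 and S100a6 thus had ratios above 1 in all 4 libraries. In Epi-NMP the UMIs of each lay in 1 of the 5 cells, a different cell for each marker (5 of Cnn1, 8 of Anxa1 and 16 of S100a6). They were proposed from these data, so this is no independent support, and none was in every cell: at least 3 UMIs were found in 30 of 56 cells for Cnn1, 19 for Anxa1 and 26 for S100a6.

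**Figure D3:**
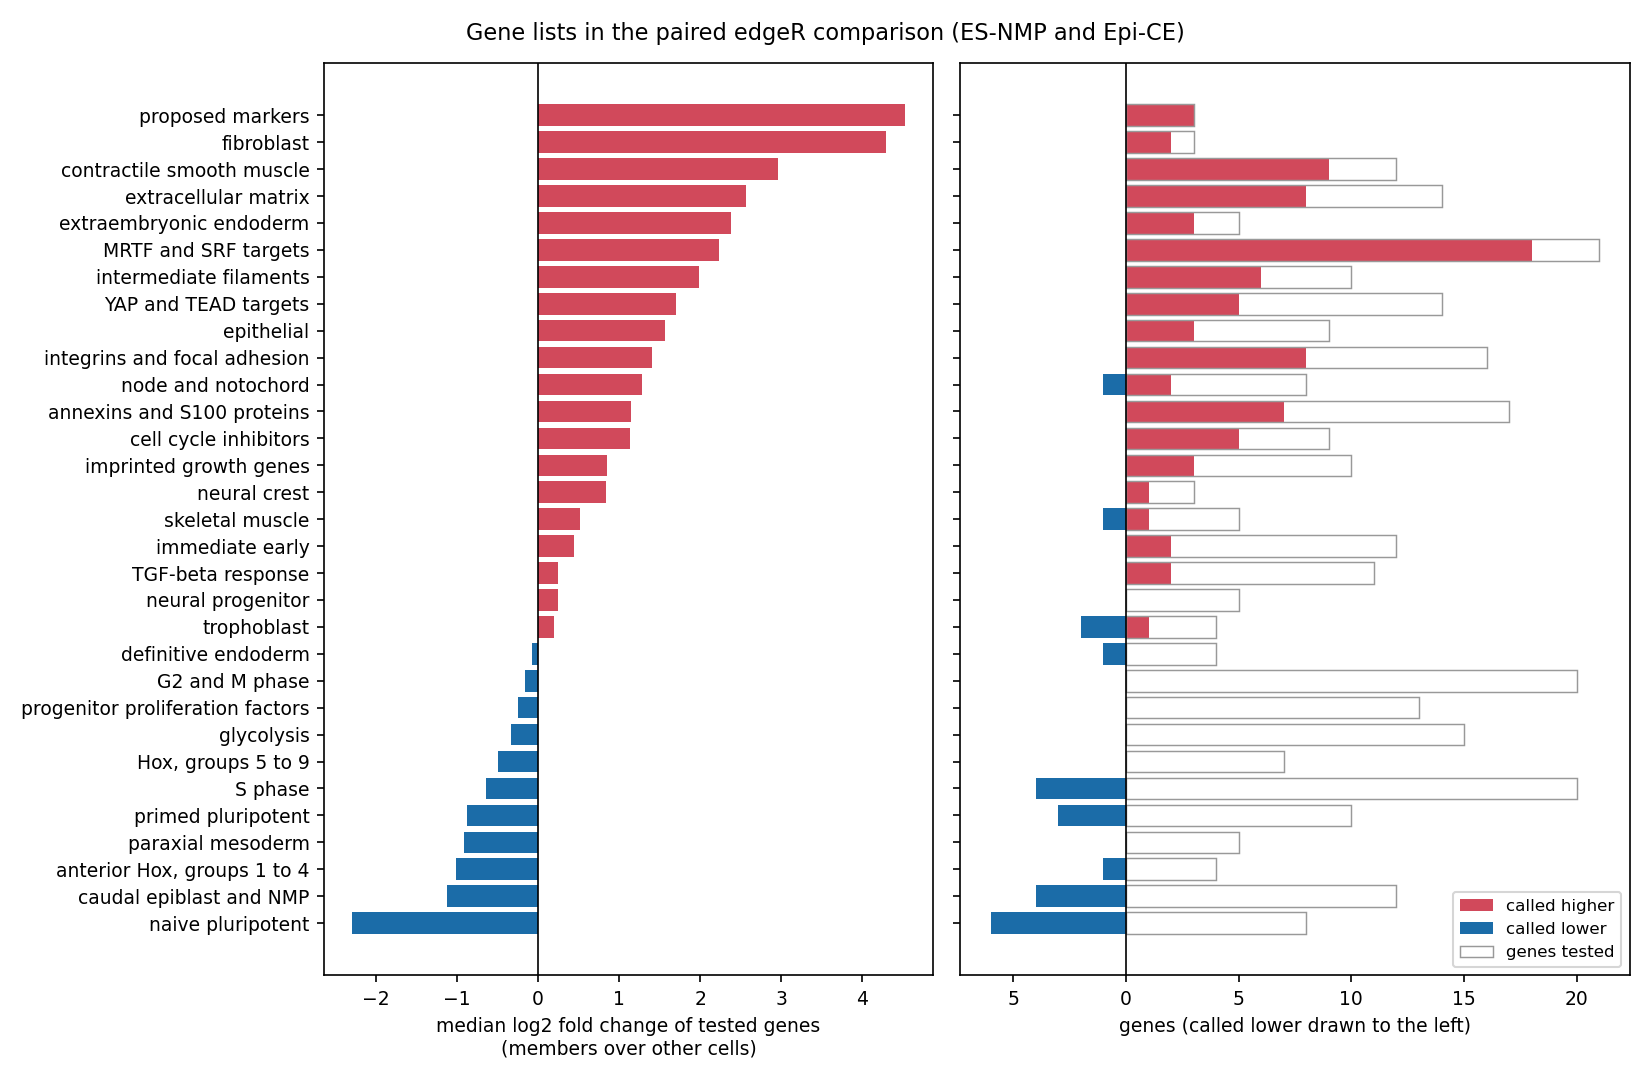
Gene lists in the paired edgeR fit of ES-NMP and Epi-CE, for lists with at least 3 tested genes. The left panel gives the median log2 fold change of the tested genes. The right panel gives the number tested (outline), called higher (red) and called lower (blue, drawn leftward). The proposed markers (4.53) and the fibroblast list (4.30), with 3 tested genes each, lie at the top. The contractile (2.96), matrix (2.56), extraembryonic endoderm (2.38) and SRF and MRTF (2.23) lists follow, and naive pluripotent genes (6 of 8 lower) lie at the bottom.

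The cells were not of 1 kind, and their intermediate filaments varied from cell to cell without a clean split. Among them the Spearman correlation of Krt8 and Vim UMIs was -0.15 in ES-NMP and 0.04 in Epi-CE. Vim, vimentin, the filament of mesenchymal cells, and the keratin Krt8, of simple epithelia, were both higher over the set (Vim log2 1.71, SE 0.27, edgeR adjusted p = 0.012; Krt8 log2 2.96, SE 0.52, edgeR adjusted p = 0.0187). The Krt8 call, and that of its partner Krt18 (log2 3.11, SE 0.60, edgeR adjusted p = 0.0289), did not hold under DESeq2 or limma-voom, and both genes have near-identical pseudogene copies. Of the UMIs of the set, 81.9% for Krt8 and 80.1% for Krt18 lay in 8 cells, the keratin-rich group described below. The other 48 cells had medians of 2.5 Krt8 and 7 Krt18 UMIs. By cell, 19 held at least 10 Vim UMIs and fewer than 10 of Krt8, 17 held at least 10 of both, 8 held Krt8 alone by that measure and 12 held neither. All 16 cells of Epi-CE held at least 10 Vim UMIs, as did 72.3% of the other cells there, while in ES-NMP 15 of 32 did, against 8.07% of the others. In Epi-CE vimentin was thus common to both sets.

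A keratin-rich group of 8 cells stood out, with 5 in ES-NMP and 1 in each of the other libraries. It was defined by at least 80 Krt8 UMIs, a limit set after the values had been seen, so its genes are a description with no test. Such counts were not particular to the set. They were found in 8 of 56 Acta2/Tagln cells (14.3%) and in 67 of the 8666 other cells (0.773%). Of those 67, 27 were in ES-NMP, 39 in Epi-CE, 0 in Epi-CE-T and 1 in Epi-NMP. The Krt8 counts ran from 81 to 619, and the other 48 cells held at most 57. All 8 carried Krt18 (50 to 730 UMIs), Krt19, Sfn (stratifin), Cdh1 (E-cadherin) and Cldn4 (a tight-junction claudin). The 8 cells also carried most of the skeletal actin: each held Acta1, at 3, 12, 16, 60 and 83 UMIs in ES-NMP, 83 in Epi-CE, 88 in Epi-CE-T and 4 in Epi-NMP, together 78.1% of the Acta1 UMIs of all 56 cells. They held 91.2% of the Krt7 UMIs and 77.3% of those of Cldn6, another claudin. Vimentin was low, with a median of 4 UMIs against 36.5 in the other 48 cells, and none had a Col1a1 or Col1a2 UMI. Cnn1 was found in all 8, at 3 to 35 UMIs, and Myl9 ran from 0 to 25.

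The keratin-rich cells also differed from one another in other genes. Each library except ES-NMP gave 1 such cell, so no difference by origin can be read from them. The 3 from cultures of epiblast stem cells (Epi-CE, Epi-CE-T, then Epi-NMP) held 11, 11 and 4 UMIs of Sox2 and 3, 47 and 59 of Spink1, a secreted protease inhibitor, while the 5 from ES-NMP held 0 of either. Outside the set, a Sox2 UMI was found in 52.4% of cells of ES-NMP, 36.6% of Epi-CE, 41.55% of Epi-CE-T and 59.8% of Epi-NMP. For Spink1 the shares were 0.389%, 0.633%, 10.1% and 0.723% in the same order. The keratin-rich cells of Epi-CE and Epi-NMP also held 9 and 7 UMIs of Sox17, an endoderm factor, and the other 6 keratin-rich cells held none. These 3 cells had the most UMIs of the Acta2/Tagln cells in their libraries (55044, 68519 and 62630), and the 8 had a median of 44682 against 26307.5 in the other 48. Of the 8, 1 was among the top 5% of Scrublet doublet scores, and of all 56 cells 6 were (10.7%). The part of doublets in this group was not tested.

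**Figure D4:**
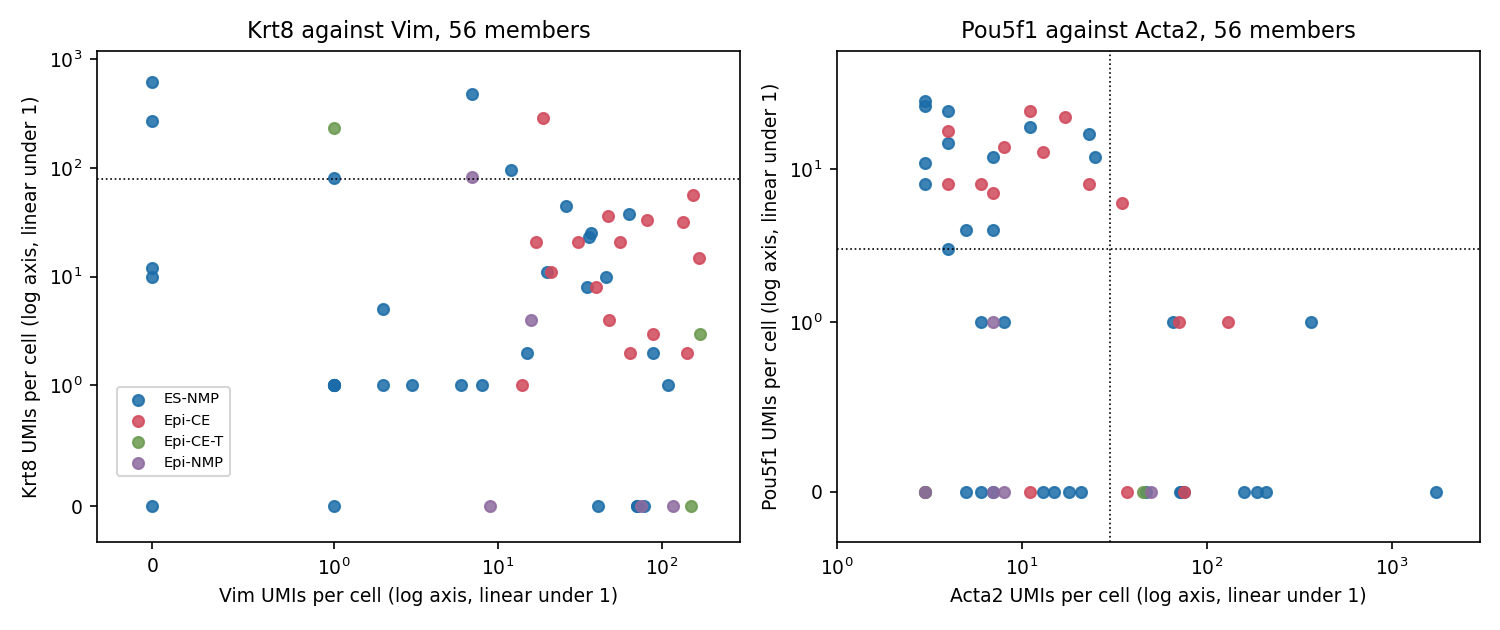
UMIs per cell in the 56 Acta2/Tagln cells, coloured by library, on axes that are logarithmic above 1: Krt8 against Vim (left, dotted line at 80 Krt8 UMIs) and Pou5f1 against Acta2 (right, dotted lines at 3 and 30 UMIs). The 8 cells above the Krt8 line hold 0 to 19 Vim UMIs, and 1 of 17 cells with at least 30 Acta2 UMIs has at least 3 of Pou5f1.

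Pluripotency genes were lower. Pou5f1 (Oct4), the core pluripotency factor, was at 219 CPM against 461 CPM in the other cells of ES-NMP, and at 238 against 428 CPM in Epi-CE (log2 -0.98, SE 0.16, edgeR adjusted p = 0.0151). In Epi-CE-T the 3 cells held 0 UMIs, which allows at most 0.366 of the level of the others, and in Epi-NMP the gene was low in both sets, at 5.41 and 9.83 CPM. The call did not hold in the fit on 4 libraries without ES-NMP or without Epi-CE. By cell, at least 3 Pou5f1 UMIs were found in 13 of 32 cells of ES-NMP and 10 of 16 of Epi-CE, so 23 of the 56 cells kept a marked level of the gene. Split at 30 UMIs of Acta2, a gene of the rule and a limit chosen after the values had been seen, at least 3 Pou5f1 UMIs were found in 0 of 10 cells above and 13 of 22 below in ES-NMP, and in 1 of 5 and 9 of 11 in Epi-CE. This split is a description with no test, and the cells above it were deeper (median 33321 against 25747 UMIs over all libraries).

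Of 10 genes of primed pluripotency tested, 3 were lower (Pou5f1, Tdgf1 and Lefty1) and 0 higher, with a median log2 of -0.88. With depth limited 6 were lower and 1 higher, and against cells with at most 1 UMI of the rule genes 6 were lower. Of 8 naive genes tested, 6 were lower (Zfp42, Dppa3, Dppa5a, Klf2, Tdh and Nanog) and 0 higher, with a median of -2.30. Naive pluripotency genes mark the state of embryonic stem cells before they enter the epiblast, and in these data they were found mainly in ES-NMP. Dppa5a was at 194.7 against 1013 CPM there, and Zfp42 at 22.3 against 169 CPM. In Epi-CE the other cells held Dppa5a at 2.48 CPM and Zfp42 at 0.0688 CPM, so those calls rest on ES-NMP, and neither held under DESeq2. Klf2, a naive pluripotency factor, was lower in both, at 35.2 against 268 CPM in ES-NMP and 12.8 against 29.9 CPM in Epi-CE (log2 -2.58, SE 0.34, edgeR adjusted p = 0.00581). Nanog was at 14.1 against 58.7 CPM and 1.83 against 14.6 CPM, the last from 1 UMI (log2 -2.23, SE 0.36, edgeR adjusted p = 0.0141, not held under limma-voom or, of the 4 libraries, without Epi-CE). The Klf2 call did not hold in the fit on 4 libraries without ES-NMP.

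Genes of caudal identity were lower in part. Of 12 caudal epiblast and NMP genes tested, 4 were lower (Cdx2, Wnt3a, Wnt8a and Hes3) and 0 higher, with a median log2 of -1.12. Wnt3a, Wnt8a and Hes3 did not hold under limma-voom. The number lower was 8 with depth limited and 2 with all barcodes. Cdx2, the caudal homeobox factor, was at 66.8 against 247 CPM in ES-NMP, 65.8 against 122.5 CPM in Epi-CE and 146 against 338 CPM in Epi-NMP (log2 -1.46, SE 0.25, edgeR adjusted p = 0.018). T, the mesoderm factor Brachyury, had ratios of 0.170 (0.0952 to 0.281) in the cells of ES-NMP, 0.759 (0.651 to 0.879) in those of Epi-CE, 0.538 (0.352 to 0.789) in those of Epi-CE-T and 0.134 (0.0491 to 0.292) in Epi-NMP. The intervals of ES-NMP and Epi-CE do not overlap, and T did not pass the test (log2 -1.15, SE 0.39, edgeR adjusted p = 0.157). In the edgeR fit on all 4 libraries T was called lower (log2 -1.38, adjusted p = 0.0208). At least 3 T UMIs were found in 12 of 16 cells of Epi-CE (75%, against 76.8% of the others) and in 2 of 32 of ES-NMP (6.25%, against 26.1%). In the T-reporter sort, 1 of the 3 Acta2/Tagln cells held T, with 26 UMIs, and neither the keratin-rich cell nor the collagen-rich cell of that library held any. Sox2, the neural and pluripotency factor, had a ratio of 0.227 (0.124 to 0.381) in ES-NMP and 1.17 (0.711 to 1.81) in Epi-CE and did not pass the test (edgeR adjusted p = 0.311). Nkx1-2, an NMP marker, did not pass either (log2 -0.76, SE 0.28, edgeR adjusted p = 0.188). Gbx2, a posterior epiblast gene, fell in both (log2 -2.48, SE 0.32, edgeR adjusted p = 0.00498), at 7.04 against 46.1 CPM and 12.8 against 59.4 CPM, and this call did not hold under limma-voom either.

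**Figure D5:**
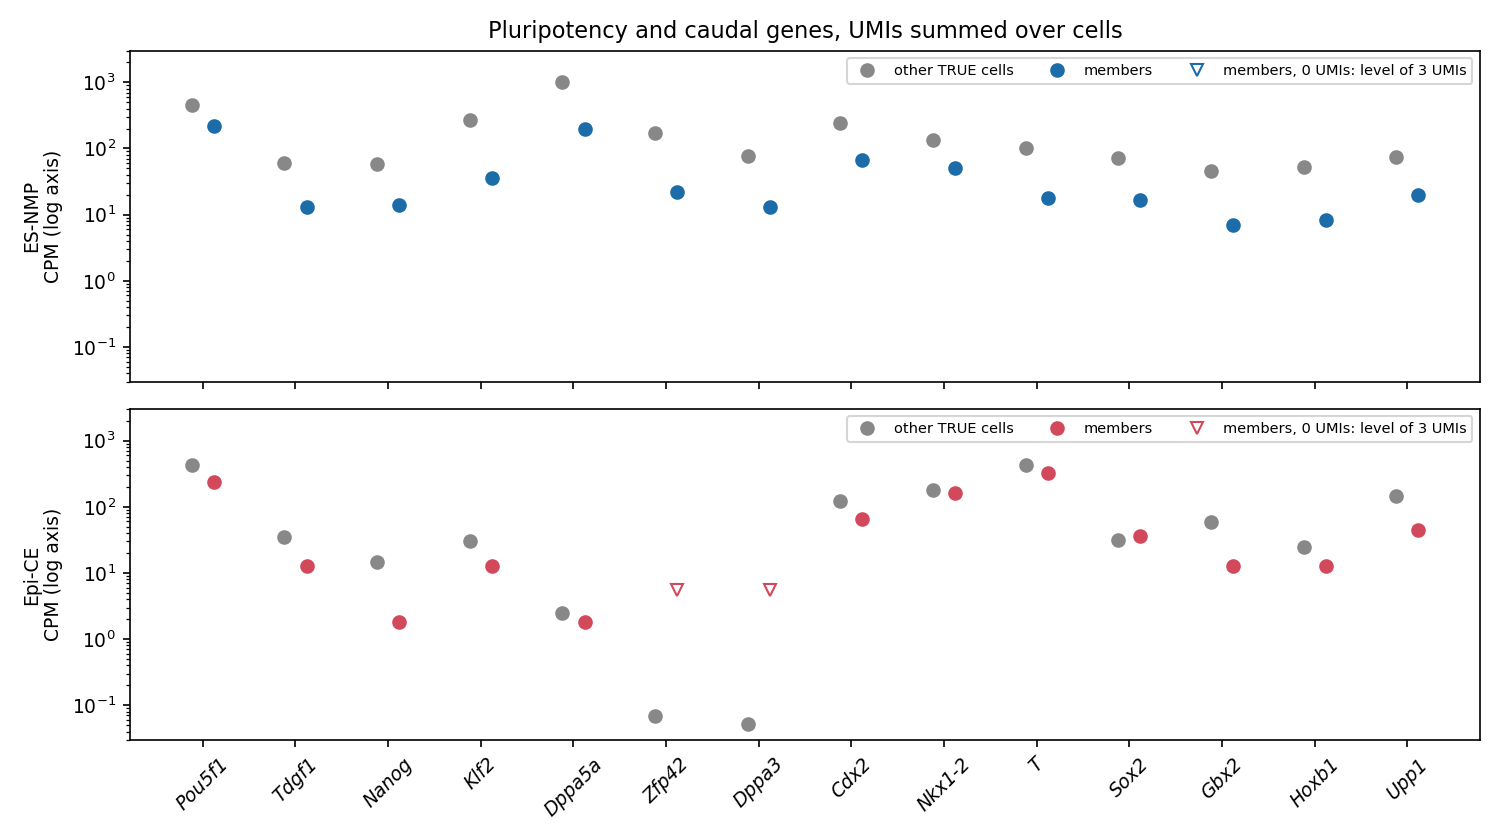
CPM (y axis, logarithmic) of pluripotency and caudal genes in the Acta2/Tagln cells (coloured) and the other TRUE cells (grey), for ES-NMP above and Epi-CE below; open triangles stand at the level of 3 UMIs where the Acta2/Tagln cells held 0. In ES-NMP all 14 genes are lower in the Acta2/Tagln cells, while in Epi-CE Sox2 is not, at 36.6 against 31.3 CPM, and Zfp42 and Dppa3 are near 0 in both sets.

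S-phase genes were lower in part, and several inhibitors of the cycle were higher. Of 20 S-phase genes tested, 4 were lower (Mcm3, Mcm5, Mcm7 and Ung) and 0 higher (median log2 -0.64). The number lower was 8 against cells with at most 1 UMI of the rule genes, 7 with depth limited, and 2 either with all barcodes or without the cell with the most Acta2 UMIs. Of 20 genes of G2 and M phase the paired edgeR fit, DESeq2 and limma-voom each called 0, with 3 at an unadjusted p under 0.05 in edgeR (median -0.16). With depth limited edgeR called 9 of them lower, and with all 4 libraries 1. Their summed level was 840 against 3941 CPM in Epi-CE-T and 3173 against 3406 CPM in Epi-CE. None of the 4 S-phase calls held without ES-NMP or without Epi-CE in the fit on 4 libraries, except that of Mcm7 without ES-NMP. Of 9 genes of cell cycle arrest and inhibition, 5 were higher and 0 lower, and 3 were higher with all barcodes. Cdkn2b, the kinase inhibitor p15, had ratios of 10.4 (6.52 to 15.97) and 9.97 (4.42 to 19.7) in ES-NMP and Epi-CE (log2 3.33, SE 0.53, edgeR adjusted p = 0.0138), a call that did not hold in the fit on 4 libraries without ES-NMP. Cdkn2a, of the neighbouring locus, had ratios of 2.80, 6.55, 10.6 and 3.81 in the 4 libraries (log2 2.01, SE 0.33, edgeR adjusted p = 0.0151).

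Markers of other cell types were read in the same way. Extraembryonic endoderm markers gave 3 of 5 tested higher (Sparc, Col4a1 and Col4a2, which are matrix genes) and 0 lower. Lateral mesoderm gave Bmp4, a signalling ligand, as its single tested gene, higher at 137 against 7.81 CPM in ES-NMP and 43.9 against 15.0 CPM in Epi-CE (edgeR adjusted p = 0.0187), a call not kept in the fit on all 4 libraries. Of 3 neural crest genes tested Ets1 was higher, though not in the fit on 4 libraries without ES-NMP, and 0 were lower. Of the pericyte genes 2 were tested, of the paraxial mesoderm genes 5 and of the neural progenitor genes 5. The paired edgeR fit, DESeq2 and limma-voom called 0 in each of these lists, with 1, 2 and 2 genes at an unadjusted p under 0.05 in edgeR. With depth limited edgeR called 1 paraxial gene higher, and 1 neural gene higher and 2 lower, and with all 4 libraries it called Dll1 of the paraxial list lower (adjusted p = 0.0432). Of 4 definitive endoderm genes tested, Trh was lower and 0 were higher, and Trh was not lower with all 4 libraries. Of 4 trophoblast genes tested, Krt7 was higher and Cdx2 and Tfap2c were lower. Of 8 genes of node and notochord tested, Krt8 and Krt18 were higher and Cdx2 was lower, and with depth limited 4 were higher and 2 lower. Over the fibroblast list the summed level was 242.8 CPM in the Acta2/Tagln cells against 17.4 CPM in the others of ES-NMP, and 56.7 against 20.1 CPM in Epi-CE. Over the epithelial list it was 5527 against 527.5 CPM and 3060 against 1389 CPM, with Krt8, Krt18 and Cldn6 higher and 0 lower of 9 tested. The 8 keratin-rich cells held most of the Krt8, Krt18 and Cldn6 UMIs of the set. Over the cardiac list the summed level was 159.5 against 14.1 CPM and 181 against 11.8 CPM. The part of such cells in the result was not tested.

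Where only a few cells were found, single cells set the result. In Epi-CE-T the genes with the highest ratios by the rule for single libraries were Acta1, Crb3, Tesc, Cryab and Cldn7, and 1 keratin-rich cell held all UMIs of Acta1 (88), Crb3 (15) and Cldn7 (22). The lowest were Cdc20, Pomc and Cenpa. Cdc20 and Cenpa, of mitosis, had 1 UMI each over the 3 cells, and Pomc, the pro-opiomelanocortin hormone precursor, was at 47.5 CPM against 1382 CPM in the other cells. In Epi-NMP the highest were Spink1, Plaur (the urokinase receptor), Krt7, Tnnc1 and Myl9, of which 1 cell held 59 of 59, 23 of 23, 23 of 23, 22 of 23 and 25 of 28 UMIs. In Epi-CE the highest were Anxa1, Actc1, Acta1, Fhl2 and Cryab (alpha-B crystallin, a small chaperone of muscle). In ES-NMP they were Col1a1, Lmod1, F3, Prss23, a serine protease, and Adm, adrenomedullin, a vasodilator peptide. Adm did not pass the paired test, and no UMI of it was found in the Acta2/Tagln cells of Epi-CE.

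Where Acta2 and Tagln themselves were left out, part of the cells still lay together. Each library was clustered on the remaining genes, and the 15 nearest neighbours of each cell were read. In ES-NMP 20 of 32 Acta2/Tagln cells fell in 1 of 11 clusters, one that held 3.34% of that library's cells, and all 5 keratin-rich cells were there. Most cells of that cluster lay outside the set, as Acta2/Tagln cells were 19.2% of its 104 cells. On average 21.5% of the neighbours of an Acta2/Tagln cell were Acta2/Tagln cells, against 0.528% for the other cells. In Epi-CE 9 of 16 fell in 1 of 12 clusters with 9.77% of the cells, where they were 3.86% of 233 cells. The neighbour shares there were 7.08% and 0.27%. In Epi-CE-T no Acta2/Tagln cell neighboured another, and in Epi-NMP 1 did. In ES-NMP 7 of 32 cells, and in Epi-CE 7 of 16, had no Acta2/Tagln cell among their neighbours, so the rest of their transcriptome placed them elsewhere.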

How the data were processed

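The authors deposited UMI counts per gene and barcode for 10579 barcodes and 27998 genes, with a mark that is TRUE for 8722 of them, a mark whose meaning none of the sources used here gives. The tools named in the submitters' processing notes are Cell Ranger 1.3.1 and Seurat 2.0, with the build mm10, and how reads shared between gene copies were counted is not given in the sources used here. Raw counts were used as deposited.

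Cells with at least 3 UMIs of Acta2 and of Tagln were compared with the other TRUE cells of their library. The cells, the 35 gene lists and the rule for named genes were chosen with earlier results of these data known. Counts were summed per library and set and tested with edgeR 4.0.16 (R 4.3.3; quasi-likelihood, TMM factors, library as a block, a mean of at least 5 CPM over the summed columns, adjusted p at most 0.05) in the libraries with at least 10 such cells. There were 32 in ES-NMP, 16 in Epi-CE, 3 in Epi-CE-T and 5 in Epi-NMP. The labels name no separate cultures, so p-values rest on 2 libraries without replicates and on a spread that edgeR estimates partly from other genes. Differences between the libraries may be technical. The script was tested on simulated data. No untreated library was analysed here.

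Ratios of CPM were computed per library, with 3 counts as the floor where the Acta2/Tagln cells held 0 UMIs. Cells were thinned at random to 8000 UMIs for shares of cells with a UMI. Doublets were not removed, and the top 5% of Scrublet scores, computed with scanpy 1.11.5, were left out as an alternative. Cells were clustered with leidenalg 0.10.2 on 2000 variable genes without Acta2 and Tagln (30 components, 15 neighbours, resolution 1.0). Promoters are RefSeq windows (GRCm38.p6), and Tagln is named only. Gene positions are from GENCODE M21.

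Genes named were drawn from the 15 highest and 10 lowest called genes of the paired fit with at least 30 CPM. Further sources were the 5 highest and 3 lowest ratios per library (at least 50 CPM and 50 UMIs) and up to 4 genes per list. The contractile and proposed markers and identity genes were added. Not every gene that met these rules is described, with Wisp1, Vgll3, Alpl, Car14 and Pim2 among those left out. Some of the genes described, such as those of the keratin-rich cells, were named after their values were seen. Alternatives were DESeq2 1.42.0, limma-voom (limma 3.58.1), other scalings, filters, minima, depths and comparison cells. A fit on all 4 libraries, also leaving out each in turn, and a fit without the cell with the most Acta2 UMIs were added after seeing the data.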

Additional observations from a re-analysis of the deposited data

Results flagged for a closer look

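Named genes moved in opposite directions between libraries in 4 cases, with 95% counting intervals on opposite sides of 1, and the difference between libraries was not tested. Trh, thyrotropin-releasing hormone, had a ratio of Acta2/Tagln cells over the others of 28.35 in Epi-CE-T and 0.1023 in ES-NMP, and all 63 Trh UMIs of the Acta2/Tagln cells of Epi-CE-T lay in 1 cell. Mt1, a metallothionein, had a ratio of 3.2 in Epi-NMP, 0.6279 in ES-NMP and 0.2284 in Epi-CE. Clu, the secreted chaperone clusterin, had a ratio of 5.325 in ES-NMP, 1.292 in Epi-CE, 0.2981 in Epi-CE-T and 0.07364 in Epi-NMP. Lmo2, a transcriptional cofactor of blood and endothelium, had a ratio of 2.201 in Epi-CE, 0.3353 in ES-NMP and 0.1585 in Epi-NMP.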

How the results depend on the processing

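The share of Acta2/Tagln cells depends on the minimum of UMIs. With a minimum of 2, 5 and 10 UMIs it was 1.09%, 0.377% and 0.335% in Epi-CE, and after thinning to 8000 UMIs 0.293%. In ES-NMP it was 0.449% with a minimum of 10 and 0.449% after thinning, and in Epi-NMP both gave 0%. With minima of 5 and 10 and with the rule on thinned cells only ES-NMP held at least 10 cells, and no paired fit was run; leaving a library out of the main fit leaves 1 pair and no test.

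The number of genes higher, 281 in the paired fit, was 494 against cells with at most 1 UMI of Acta2 and Tagln together, 532 with both sets limited in depth, 164 with a minimum of 2, 468 without the top 5% of Scrublet scores, 530 with no filter beyond 1 UMI and 3 with no library block. Leaving out each library from the fit on 4 gave 137 (without ES-NMP), 145 (without Epi-CE) and up to 247 genes higher, and 28 to 55 lower. The number lower, 48, was 23 with all barcodes, 118 against cells with at most 1 UMI, 250 with depth limited, 27 with a minimum of 2, 155 with sums of thinned cells, 115 without the top Scrublet scores, 24 under limma-voom, 87 with DESeq2 size factors, 304 with no filter, 0 with no library block and 109 with all 4 libraries. Trh changed sign with all 4 libraries (log2 0.73), and without ES-NMP (3.24), Epi-CE (0.98) or Epi-NMP (0.77). The cause was not tested. Of the 8 contractile genes at least 1.5-fold higher in every library, Cnn1 and Nexn dropped out with depth limited, and Cnn1 and Pdlim7 with a minimum of 5. Of 100 called genes in the lists or named, 26 lost the call under limma-voom, 14 under DESeq2 and 98 with no library block. No paired analysis by replicate was possible because each population has 1 library; the block here is the library.

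Limits are the 1 library per population, the 3 and 5 cells of Epi-CE-T and Epi-NMP, and the single cells that hold many of the UMIs of a gene.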

Other observations

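Some gene groups outside the cytoskeleton were also read. Of 10 imprinted growth genes tested, 3 were higher (Igf2, Peg10 and Cdkn1c) and 0 lower, with a median log2 fold change of 0.85. Igf2, the fetal growth factor, had ratios of 19.1 (13.1 to 27.2) in ES-NMP, 6.25 (2.65 to 12.7) in Epi-CE and 6.06 (3.30 to 10.2) in Epi-CE-T, and 0.241 (0.00609 to 1.35) in Epi-NMP. Its UMIs lay in 10 of 32 cells of ES-NMP and 2 of 16 of Epi-CE, and the call did not hold on thinned sums or, of the 4 libraries, without ES-NMP, Epi-CE or Epi-CE-T. Peg10 and Cdkn1c were not called with all 4 libraries, and 5 of the list were higher with depth limited.

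Of 12 immediate early genes tested, Atf3 and Klf6 were higher and 0 lower (median log2 0.44), and neither held under limma-voom. With all 4 libraries 4 of the list were higher and 1 lower, and with all barcodes 0 were higher. Atf3, a stress-induced factor, had ratios of 5.33, 2.08, 18.04 and 3.32 in the 4 libraries, ordered as above. Of 15 glycolysis genes tested the paired edgeR fit called 0, DESeq2 1 lower and limma-voom 2 lower, with 8 at an unadjusted p under 0.05 in edgeR (median log2 -0.34). edgeR called 4 lower with all 4 libraries, and 2 lower with depth limited or against cells with at most 1 UMI of the rule genes. Of 4 anterior Hox genes tested, Hoxb1 was lower and 0 were higher, at 8.21 against 52.6 CPM in ES-NMP and 12.8 against 24.6 CPM in Epi-CE, and the call did not hold without the cell with the most Acta2 UMIs. Of 7 Hox genes of groups 5 to 9 tested, the paired edgeR fit, DESeq2 and limma-voom called 0, with 3 at an unadjusted p under 0.05 in edgeR. The edgeR fit on all 4 libraries called Hoxb7 (adjusted p = 0.0397) and Hoxc8 (adjusted p = 0.0439) lower. Upp1, uridine phosphorylase, was lower in every library, with ratios of 0.269, 0.302, 0.165 and 0.140 and intervals below 1 in all 4.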
